A study of Mus musculus with 44 samples.

Results

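Gene expression 2 h after the start of B-cell differentiation was set against that at 0 h in mouse cells known as induced leukocyte stem (iLS) cells. The comparison used 6 of the 44 libraries of a time course, 3 at 0 h and 3 at 2 h, taken by the time point in their labels. The 3 libraries at 1 h and the 3 at 4 h served to place the 2 h profile between its neighbours. All 42 libraries of the 14 time points with 3 libraries entered the fit.

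FL iLS cells are multipotent blood progenitors made from C57BL/6J fetal liver by Id3-ERT2, a fusion of the Id3 protein to a receptor domain that 4-hydroxytamoxifen (4-OHT) activates. Both groups carry this fusion. Before 0 h the culture held a layer of stromal feeder cells of the mouse line TSt-4 and IMDM medium with IL-7 at 20 ng/mL, SCF and Flt-3L at 10 ng/mL each, and 4-OHT at 40 nM. For the 2 h group the labels give TSt-4 cells and IMDM medium with 5 ng/mL of IL-7, without 4-OHT, and they name neither SCF nor Flt-3L. The 2 groups therefore differ in 4-OHT, in the cytokines named and in the handling of the culture, and these cannot be told apart. The labels do not say whether the 3 libraries of a group came from separate cultures. The p-values of the fit reflect only how far libraries of the same time point differ among themselves, which may be technical. This spread was pooled over the 14 time points for each gene. Each SE below comes from it and is not the scatter of the 6 values printed beside it. The labels do not say whether feeder cells were removed before RNA was isolated. The rest of the text calls the 2 groups 0 h and 2 h.

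Id proteins bind E proteins such as the products of Tcf3 and Tcf4 and keep them from DNA, and E proteins switch on the early B-cell programme through Ebf1, Foxo1 and Pax5. Cells that meet fresh medium or growth factors switch on immediate-early genes such as Egr1 and Fosb through pathways that include ERK signalling and serum response factor (SRF). Feedback inhibitors and secreted factors follow, while the first wave decays. YAP and SRF drive cytoskeletal and matrix genes in adherent cells such as fibroblasts. NF-kB drives cytokine genes and its own inhibitors. IL-7 acts through JAK kinases and STAT5, which support Bcl2, Pim kinases and Socs genes in lymphoid progenitors.

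Transcript levels were read as FPKM, fragment counts divided by transcript length and by the library's mapped fragments. The 6 libraries had FPKM sums of 591800 to 645400 and from 11520 to 12088 genes at 1 FPKM or more. Their relative depth, estimated from the smallest values, spanned a 2.27-fold range, and the true depth is unknown because the table holds no counts. Changes are differences of log2(FPKM + 1), which understate changes of genes near 1 FPKM, and were tested with limma over 13907 genes with Benjamini-Hochberg adjustment. Genes with an adjusted p under 0.05 were called, and "rose" and "fell" are used only of called genes.

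Transcripts typical of stromal cells were more abundant at 2 h and transcripts typical of blood cells less abundant. The 26 tested stromal feeder genes, such as the collagen genes Col1a1 and Col3a1 and the fibronectin gene Fn1, summed to 570, 894 and 2064 FPKM in the 3 libraries at 0 h and to 6037, 5961 and 4229 FPKM at 2 h. The 20 general blood-cell genes, such as Lcp1, the gene of an actin-bundling protein, summed to 2577, 2746 and 2137 FPKM at 0 h and to 1028, 1048 and 1350 FPKM at 2 h. The groups did not overlap in either sum. Replicate 3 lay closest to the other group at both times, with the most stromal and least blood-cell signal at 0 h and the reverse at 2 h. The stromal mean was 1176 ± 786 FPKM at 0 h and 5409 ± 1023 at 2 h (SD, n = 3), and the blood-cell mean was 2487 ± 314 and 1142 ± 180 (SD, n = 3). An exact two-sided permutation test of 3 against 3 libraries gave p = 0.1 for each sum, the smallest p this design allows. In such bulk RNA, fewer cells of a type and less RNA per cell cannot be told apart, nor can TSt-4 and iLS transcripts of the same gene, since both are mouse cells. Dcn and Lum, 2 more genes of the stromal list, did not reach the filter on low values.

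**Figure D1:**
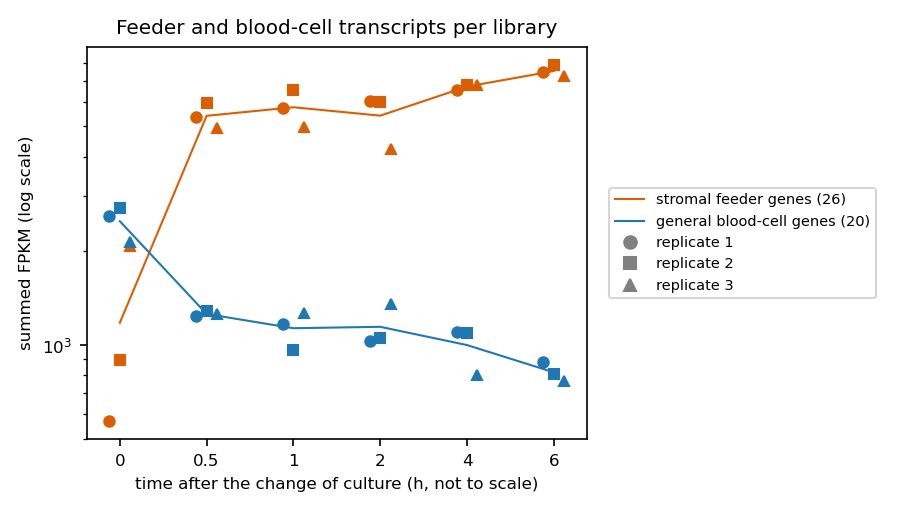
Total level (FPKM, log axis) of 26 genes of stromal feeder cells in orange and of 20 general blood-cell genes in blue, by time in h on an axis not to scale; symbols are replicates and lines join means of the 3 libraries. The stromal mean goes from 1176 FPKM at 0 h to 5409 at 2 h and the blood-cell mean from 2487 to 1142.

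At 2 h, 2291 genes were called higher (16.5% of those tested) and 2572 lower (18.5%), 35% in all. These shares are the ones to set beside each list's counts below. The lists were chosen with earlier results of these data known, so a count that departs from these shares may follow in part from that choice. Rises were larger than falls, with 1533 genes at least 2-fold higher and 910 at least 2-fold lower on the log2(FPKM + 1) scale. The median change of all tested genes was -0.11 (log2). The 3 libraries at 2 h lay apart from the 3 at 0 h in 6812 genes (49%), above in 20.9% of those tested and below in 28.1%, and 4660 of the 6812 were called. The split between higher and lower depended on the scaling. With median-ratio scaling 58.3% of the called genes were higher in place of 47.1%, from 2660 higher (19.1%) and 1903 lower (13.7%). With each library scaled to the general blood-cell genes 98.6% were higher, from 6214 higher (44.1%) and 87 lower (0.618%), and the median of all genes moved to 0.70. With the mean log2 level of the stromal genes as a covariate, 97 genes were called higher (0.697%) and 27 lower (0.194%), and 113 of these 124 were called in the same direction without the covariate. Values under 1 or both of the last 2 fits are given beside the groups below. The covariate is the mean of the stromal list itself, so that list's change near 0 under it is set by the fit. The mean log2 level of the 26 tested stromal genes was 3.64 to 5.26 at 0 h and 6.26 to 6.79 at 2 h. This fit therefore separates stromal signal from time only poorly, and a call kept or lost under it gives no cause.

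Targets of YAP and SRF, transcription regulators of the cytoskeleton and matrix, rose throughout their list: 26 of 26 tested members were called higher, with a median log2 change of 2.45, where 16.5% of all genes were called higher and their median was -0.11. Ctgf, which encodes a matrix-associated growth regulator, stood at 8.64, 23.1 and 111 FPKM at 0 h and 1091, 1260 and 863 FPKM at 2 h, a log2 change of 5.16 ± 0.45 (SE, adjusted p = 2.16e-10). In this gene 0 h replicate 3 was the highest of its group, as for the stromal sum, and all 2 h libraries were far above it. Cyr61, a relative of Ctgf, stood at 6.41, 8.87 and 42.5 FPKM at 0 h and 170.5, 219 and 167 FPKM at 2 h (log2 change 3.65 ± 0.36). The actin-binding genes Tagln (3.48), Myl9 (3.35), Acta2 (3.12), Vcl (2.89) and Cnn1 (2.74) rose on the same log2 scale, and the general actin genes Actb (0.83) and Actg1 (1.62) rose less. The members' median within replicate numbers 1, 2 and 3, each a run of consecutive library codes from 0 to 6 h, was 3.36, 2.72 and 1.40, and the stromal median in the same runs was 3.22, 2.64 and 1.01. Under the stromal covariate 6 of the 26 were called higher and the median was 0.67. Ctgf (2.19) was among those called, while Cyr61 (1.56, adjusted p = 0.151) was not.

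Promoter sequences show the sites that SRF is known to bind. The promoters of 3 genes, Vcl of the YAP and SRF list, Dusp5 of the feedback list and Srf of the immediate-early list, are printed as the 250 bases before the gene's RefSeq start in build GRCm38.p6, in lower case with matches to the SRF motif, the CArG box, in capitals. They were chosen because the genes rose and the letters of the motif are present: Srf itself at chr17:46556163-46556412 (minus strand), Dusp5 at chr19:53528895-53529144 (plus strand) and Vcl at chr14:20929148-20929397 (plus strand).
Srf: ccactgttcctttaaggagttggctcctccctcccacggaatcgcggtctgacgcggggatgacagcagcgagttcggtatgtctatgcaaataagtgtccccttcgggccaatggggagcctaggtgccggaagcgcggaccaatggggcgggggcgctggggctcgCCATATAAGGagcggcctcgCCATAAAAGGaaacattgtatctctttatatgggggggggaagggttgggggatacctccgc
Dusp5: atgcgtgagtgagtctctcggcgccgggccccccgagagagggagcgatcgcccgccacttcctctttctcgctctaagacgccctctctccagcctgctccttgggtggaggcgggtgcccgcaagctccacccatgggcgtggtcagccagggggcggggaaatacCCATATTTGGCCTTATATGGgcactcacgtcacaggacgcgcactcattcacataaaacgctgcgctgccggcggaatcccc
Vcl: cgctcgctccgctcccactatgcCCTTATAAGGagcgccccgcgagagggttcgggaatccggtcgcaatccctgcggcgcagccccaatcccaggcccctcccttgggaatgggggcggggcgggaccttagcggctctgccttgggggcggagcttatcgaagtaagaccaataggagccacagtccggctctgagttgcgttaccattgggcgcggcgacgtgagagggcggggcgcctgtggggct
The Srf and Dusp5 promoters hold 2 matches each, and in both genes the outer match begins 82 bases before the start. Among RefSeq windows of 300 bases, 250 before and 50 after a start, 1.81% of 27025 genes hold a CArG box on either strand. Of the YAP and SRF list, 21 of 26 members had a window by symbol and 5 of them (23.8%) hold one. In the immediate-early list 2 of 20 members with a window (10.0%) hold one, and in the feedback list 1 of 18 (5.56%). The YAP and SRF list was named for these regulators, so its share may follow from the choice of members. A match is a description of the sequence, and binding was not measured here.

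Genes of matrix turnover rose with them, 16 of 20 tested members higher and 0 lower, with a median log2 change of 2.29. Timp3, which encodes an inhibitor of matrix metalloproteinases, had the largest rise of the genes that do not encode small RNAs. It stood at 9.37, 8.7 and 44.1 FPKM at 0 h and 877, 909 and 386 FPKM at 2 h, a log2 change of 5.35 ± 0.38 (SE, adjusted p = 6.46e-12). Replicate 3 was again the highest at 0 h and the lowest at 2 h, and the groups did not overlap. Timp1 stood at 5.7, 7.53 and 45.9 FPKM at 0 h and 262, 206 and 194 FPKM at 2 h (log2 change 3.98 ± 0.44). Has2, the hyaluronan synthase gene, stood at 1.93, 1.64 and 8.27 FPKM at 0 h and 62.5, 59.3 and 34.3 FPKM at 2 h (log2 change 3.63 ± 0.34). Mmp13 (3.23), the urokinase gene Plau (2.67) and its receptor gene Plaur (2.97) rose, and 4 members, among them Mmp3 (0.29), did not pass the test. In the fit with the stromal covariate 3 members were called, Timp3 (adjusted p = 0.00119) and Has2 (2.36) among them.

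Feedback genes of ERK and stress signalling rose in most members. Of 22 members 18 rose and 2 fell, with a median log2 change of 2.05. Errfi1, which encodes a feedback inhibitor of the EGF receptor, stood at 5.19, 9.4 and 15.9 FPKM at 0 h and 276, 328 and 157 FPKM at 2 h, a log2 change of 4.56 ± 0.33 (SE, adjusted p = 1.1e-11). Phlda1 stood at 0.836, 2.94 and 12.7 FPKM at 0 h and 98, 99.5 and 79.3 FPKM at 2 h (log2 change 4.32 ± 0.42). Plk2, a stress-responsive polo-like kinase gene, stood at 3.94, 4.53 and 11.5 FPKM at 0 h and 111, 107 and 83.2 FPKM at 2 h (log2 change 3.85 ± 0.26). The groups did not overlap in any of the 3. The phosphatase genes Dusp4 (2.79), Dusp6 (2.77), Dusp5 (2.11), Dusp14 (2.09), Dusp10 (1.77), Dusp1 (1.24) and Dusp8 (1.13), which remove phosphate from MAP kinases, rose, as did Spry2 (2.22) and Spry4 (1.20), ERK pathway inhibitors. Dusp2 (-1.21) and Spred3 (-0.80) fell, and each lost its call in 5 of the 6 fits that left 1 library out, Dusp2 in all but the one without 2 h replicate 3 and Spred3 in all but the one without 0 h replicate 3. With the stromal covariate 5 members were called, Errfi1 (2.68) and Plk2 (2.44) among them, and Phlda1 (1.52, adjusted p = 0.175) was not.

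The Plk2 promoter is shown because the gene rose and carries a second kind of motif. It lies at chr13:110394794-110395043 (plus strand, GRCm38.p6, RefSeq), and the capitals mark the cAMP response element TGACGTCA.
Plk2: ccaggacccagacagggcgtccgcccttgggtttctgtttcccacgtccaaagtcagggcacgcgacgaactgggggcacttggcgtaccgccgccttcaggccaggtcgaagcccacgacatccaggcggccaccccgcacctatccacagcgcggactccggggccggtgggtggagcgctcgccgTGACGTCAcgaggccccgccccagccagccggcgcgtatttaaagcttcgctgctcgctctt
This element was found on either strand in 2.03% of the 27025 genes' windows. In the feedback list 4 of the 18 members with a window (22.2%) hold it. These are Dusp1, Dusp8, Errfi1 and Plk2, all called higher, as were 18 of the list's 22 members.

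Immediate-early genes were split between members above 0 h and members that did not pass the test. Of 25 immediate-early transcription factor genes 17 rose and 0 fell, with a median log2 change of 1.67. Fosl1, which encodes the AP-1 subunit Fra-1, stood at 0.325, 0.49 and 5.1 FPKM at 0 h and 45.8, 48.6 and 31.9 FPKM at 2 h, a log2 change of 4.21 ± 0.46 (SE, adjusted p = 2.5e-08). Egr2, a zinc finger factor gene, stood at 0.353, 0.266 and 0.712 FPKM at 0 h and 17.1, 27.2 and 12.5 FPKM at 2 h, a log2 change of 3.73 ± 0.36 (SE, adjusted p = 1.53e-09). Arc, counted in this list as a rapidly induced gene, stood at 0.854, 0.773 and 1.15 FPKM at 0 h and 22.1, 31 and 17.6 FPKM at 2 h (log2 change 3.64 ± 0.35). Egr2 and Arc were low in every 0 h library, with replicate 3 the highest of them in both, as in the matrix genes printed above. Which cells their reads came from was not tested. Atf3 (3.31), Maff (3.11), Egr3 (2.82), Fosl2 (2.48), Klf10 (2.07), Junb (2.03) and Egr1 (1.96) rose. The 8 members that did not pass the test were Fos (-1.43), Fosb (-0.58), Jund (-0.49), Csrnp1 (-0.01), Klf2 (-0.00), Jun (0.22), Ier2 (0.23) and Nr4a2 (0.27). Fos, an AP-1 subunit gene, stood at 44.1, 24.5 and 75.4 FPKM at 0 h and 4.44, 23.6 and 32.8 FPKM at 2 h (adjusted p = 0.0991) and was called lower without 2 h replicate 3 (-1.94, adjusted p = 0.04). Under the stromal covariate 3 members were called higher, Egr2 (2.61) among them, and the list's median was 1.17.

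Secreted growth factors rose in 13 of 16 tested members, with 0 lower and a median log2 change of 2.51. Ereg, the gene of the EGF receptor ligand epiregulin, stood at 0.248, 0.561 and 2.08 FPKM at 0 h and 41.5, 53 and 43.6 FPKM at 2 h, a log2 change of 4.69 ± 0.29 (SE, adjusted p = 4.62e-13). Hbegf, another ligand of that receptor, stood at 2.24, 1.69 and 4.07 FPKM at 0 h and 48.6, 52.8 and 57.9 FPKM at 2 h, a log2 change of 3.93 ± 0.36 (SE, adjusted p = 5.34e-10). In these 2 genes the 3 libraries at 2 h were close to each other, and 2 h replicate 3 was not the lowest. At 0 h replicate 3 was the highest in both. Inhba, which encodes the activin A subunit, stood at 1.1, 0.555 and 6.42 FPKM at 0 h and 76.4, 73 and 52.8 FPKM at 2 h, a log2 change of 4.54 ± 0.41 (SE, adjusted p = 4.2e-10). Tgfb2 (2.71), Fgf7 (2.61), Pdgfa (2.59) and Fgf2 (2.54) rose, while Tgfa (0.08), Hgf (0.87) and Bmp4 (0.39) did not pass the test. In the fit with the stromal covariate Ereg (4.12), Hbegf (3.32) and Inhba (3.12) were called higher and Bmp4 (-1.77, adjusted p = 0.0177) was called lower.

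Inflammatory mediators rose in 15 of 20 tested members, with 0 lower and a median log2 change of 2.29. Ptgs2, the inducible prostaglandin synthase gene, stood at 0.989, 2.24 and 5.07 FPKM at 0 h and 79.2, 94 and 85 FPKM at 2 h, a log2 change of 4.68 ± 0.36 (SE, adjusted p = 3.53e-11). Ccl20, a chemokine gene, was listed at 0 in all 3 libraries at 0 h and stood at 13.4, 18.8 and 16.2 FPKM at 2 h (adjusted p = 2.2e-08), and no fold is given against a group at 0. Il1rl1, the gene of the IL-33 receptor, stood at 2.19, 5.76 and 7.03 FPKM at 0 h and 168, 154 and 86.2 FPKM at 2 h, a log2 change of 4.56 ± 0.30 (SE, adjusted p = 1.74e-12). The groups did not overlap in any of the 3. The chemokine genes Ccl2 (4.07), Cxcl1 (3.82), Ccl7 (3.59), Cxcl10 (3.19) and Cxcl5 (2.81) rose, as did the cytokine genes Csf1 (3.58), Lif (2.90) and Il6 (1.76). Il6 lost its call without 0 h replicate 1 and without 0 h replicate 3. Tnf (0.03), Cxcl2 (0.45), Icam1 (-0.38), Il33 (0.69) and Il11 (0.00) did not pass the test. With the stromal covariate 5 members were called, among them Ptgs2 (3.28), Ccl20 and Il1rl1 (3.22), and the list's median was 1.56.

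NF-kB feedback genes rose less. Of 16 members 9 rose and 0 fell, with a median log2 change of 0.79. Tnfaip3, which encodes the NF-kB inhibitor A20, stood at 2.31, 3.2 and 6.13 FPKM at 0 h and 35.7, 51.7 and 24.9 FPKM at 2 h, a log2 change of 2.99 ± 0.25 (SE, adjusted p = 8.62e-11). Traf1 stood at 1.15, 0.346 and 0.772 FPKM at 0 h and 11.7, 12.6 and 12.1 FPKM at 2 h, a log2 change of 2.93 ± 0.46 (SE, adjusted p = 7.46e-06). Nfkbiz stood at 3.13, 2.15 and 6.7 FPKM at 0 h and 14.5, 17.6 and 16.4 FPKM at 2 h (log2 change 1.88 ± 0.29). Traf1 was low in all 0 h libraries and nearly the same in all 2 h libraries. The subunit genes Nfkb2 (1.68), Relb (1.65) and Rela (0.60) rose, and 7 members, among them Nfkb1 (-0.50) and Rel (-0.18), did not pass the test. Nfkb1 was called lower without 0 h replicate 3 and without 2 h replicate 1. Under the stromal covariate Traf1 (3.70) and Tnfaip3 (2.06) were called.

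The promoters of 2 chemokine genes that rose are printed in the same way, Ccl20 at chr1:83116516-83116765 (plus strand) and Cxcl1 at chr5:90890995-90891244 (plus strand), with matches to the NF-kB site in capitals.
Ccl20: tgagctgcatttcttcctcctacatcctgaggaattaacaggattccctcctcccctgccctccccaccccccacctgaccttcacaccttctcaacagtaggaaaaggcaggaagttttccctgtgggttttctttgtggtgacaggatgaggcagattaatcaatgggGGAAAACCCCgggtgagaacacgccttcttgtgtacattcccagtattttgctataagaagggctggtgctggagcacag
Cxcl1: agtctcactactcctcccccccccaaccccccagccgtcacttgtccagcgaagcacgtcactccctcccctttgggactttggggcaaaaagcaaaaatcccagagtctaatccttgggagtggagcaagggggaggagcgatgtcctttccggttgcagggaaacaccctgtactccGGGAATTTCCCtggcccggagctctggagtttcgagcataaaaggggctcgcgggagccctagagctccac
The Cxcl1 promoter holds 2 overlapping matches, which appear as 1 run of capitals. The NF-kB site was found on either strand in 5.14% of the 27025 genes' windows, in 10 of 14 NF-kB genes with a window (71.4%) and in 6 of 19 inflammatory genes (31.6%). Of the general blood-cell genes, 0 of 18 with a window hold it, too few genes to set against 5.14%. The NF-kB list was named for this regulator, so its share may follow from the choice of members. Nfkb2 and Tnfaip3 rose and hold a site. Rel and Cyld hold one and did not pass the test, and Traf1 rose and holds none. A link between site and change was not tested.

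**Figure D2:**
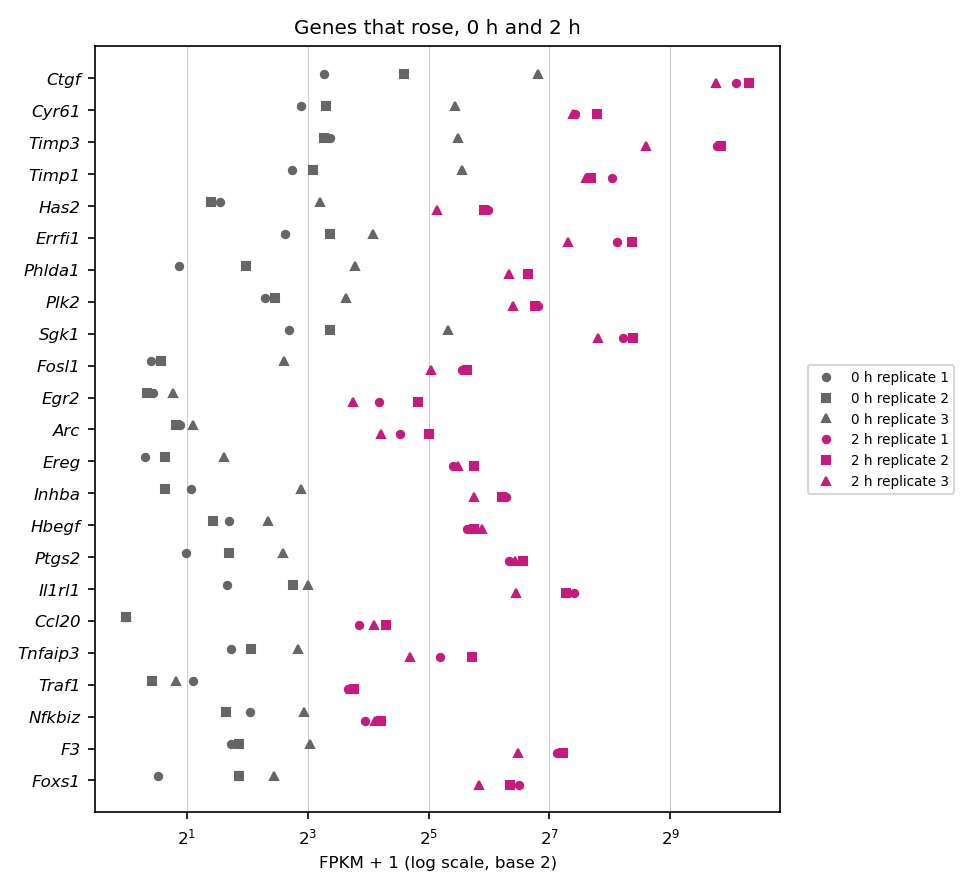
FPKM + 1 on a log scale (base 2) for 23 genes that rose, with the 3 libraries at 0 h in grey and the 3 at 2 h in magenta; symbols are the replicates. In each gene shown the 2 h libraries lie to the right of the 0 h libraries, and in Ctgf and Timp3 the 0 h triangle (replicate 3) lies closest to them.

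Other genes of the largest rises fall outside these lists. F3, the gene of tissue factor, stood at 2.33, 2.64 and 7.25 FPKM at 0 h and 138, 148 and 88.2 FPKM at 2 h, a log2 change of 4.72 ± 0.29 (SE, adjusted p = 4.59e-13). Foxs1, a forkhead factor gene, stood at 0.44, 2.66 and 4.44 FPKM at 0 h and 89, 80.6 and 56.3 FPKM at 2 h (log2 change 4.61 ± 0.38). Sgk1, a kinase gene induced by serum and glucocorticoids, stood at 5.48, 9.38 and 39.1 FPKM at 0 h and 296, 332 and 223 FPKM at 2 h (log2 change 4.34 ± 0.37). All 3 kept their call with the stromal covariate, at 3.06, 2.33 and 2.01.

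Of 21 interferon response genes 11 rose and 0 fell, with a median log2 change of 1.20. Ifit1 stood at 8.61, 11 and 9.08 FPKM at 0 h and 74, 73.5 and 28.9 FPKM at 2 h, a log2 change of 2.39 ± 0.56 (SE, adjusted p = 0.00115). Ifit3 stood at 9.5, 12.7 and 5.57 FPKM at 0 h and 76.5, 92.9 and 24.8 FPKM at 2 h, a log2 change of 2.54 ± 0.71 (SE, adjusted p = 0.00544). In both genes 2 h replicate 3 was the lowest of its group, and so it was at 1 h, when Ifit1 stood at 89.4, 92.9 and 26.6 FPKM, and at 4 h, when it stood at 93.1, 79.3 and 30.2 FPKM. Ifit genes share sequence, so their reads may be split between them. Without 2 h replicate 2 the number of members called higher was 7. In the fit with the stromal covariate 0 of 21 were called (limma, adjusted p under 0.05), where 0.697% of all genes were called higher.

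Cholesterol synthesis genes rose by small amounts, 11 of 19 higher and 2 lower, with a median log2 change of 0.50. Sc5d, a sterol synthesis enzyme gene, stood at 21.7, 24.1 and 20.6 FPKM at 0 h and 49.8, 52.2 and 46.9 FPKM at 2 h (log2 change 1.13 ± 0.20). The 3 libraries of each group were close together and did not overlap in it. Dhcr7 (-0.85) and Acat2 (-0.60) fell. Acat2 lost its call without 0 h replicate 1 and without 2 h replicate 2, and Dhcr7 lost it without these and also without 0 h replicate 2 and without 2 h replicate 3. From 2 h to 4 h 3 members of the list were called lower. With the stromal covariate the list's median was 0.55 and no member was called.

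Among the E and Id protein genes 3 rose and 2 fell of 7, where 16.5% of all genes rose and 18.5% fell. The number lower was 0 without 0 h replicate 3 and 1 without any other of the 6 libraries. Id1 stood at 10.3, 20.8 and 35.7 FPKM at 0 h and 104, 115 and 86.4 FPKM at 2 h, a log2 change of 2.29 ± 0.34 (SE, adjusted p = 3.21e-06). Id3 stood at 20.2, 40.2 and 50.3 FPKM at 0 h and 110.3, 104 and 93.9 FPKM at 2 h, a log2 change of 1.55 ± 0.38 (SE, adjusted p = 0.00174), in reads that may come from the cellular gene or from the Id3 part of the fusion. Id2 stood at 20.5, 19.3 and 18.1 FPKM at 0 h and 46.3, 43.9 and 51.5 FPKM at 2 h, a log2 change of 1.25 ± 0.25 (SE, adjusted p = 0.000225). At 0 h Id1 and Id3 were lowest in replicate 1 and highest in replicate 3, the order of the stromal sum. At 2 h both were lowest in replicate 3, as that sum was. Id2 was nearly the same in all 3 libraries at 0 h and highest in replicate 3 at 2 h. The cells that these reads came from were not tested. Tcf3, the gene of the E proteins E12 and E47, stood at 55.4, 61.1 and 65.8 FPKM at 0 h and 45.1, 44 and 46.8 FPKM at 2 h, a log2 change of -0.41 ± 0.13 (SE, adjusted p = 0.012), and lost its call without 0 h replicate 3 (log2 change -0.35, adjusted p = 0.0552). After scaling to the blood-cell genes, its change was 0.66, the opposite direction. Under the stromal covariate Id2 was called higher (1.86), and Id1 (0.16) and Id3 (-0.50) were not called.

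B-lineage transcription factor genes went both ways, 3 higher and 9 lower of 20 tested, with a median log2 change of -0.40. Over all genes 16.5% were higher and 18.5% lower. Without 0 h replicate 3 the number lower was 5. Ebf1, which specifies the B lineage, stood at 12.9, 14.8 and 12.2 FPKM at 0 h and 31.8, 40.5 and 17.9 FPKM at 2 h, a log2 change of 1.05 ± 0.33 (SE, adjusted p = 0.0119), and lost its call without 2 h replicate 2 (0.81, adjusted p = 0.094). Foxo1 stood at 1.37, 2.2 and 3.43 FPKM at 0 h and 9.91, 9.74 and 9.39 FPKM at 2 h, a log2 change of 1.73 ± 0.23 (SE, adjusted p = 7.16e-07). Pax5, which commits cells to the lineage, stood at 17.5, 10.2 and 13.4 FPKM at 0 h and 0.44, 3.71 and 4.4 FPKM at 2 h, a log2 change of -2.12 ± 0.44 (SE, adjusted p = 0.000325). The 2 groups did not overlap in any of these 3 genes. Ebf1 and Foxo1 were lowest in replicate 3 at 2 h, as the stromal sum was. At 0 h Foxo1 followed the order of that sum and Ebf1 did not. Whether their reads came from iLS or feeder cells was not tested. Myb stood at 90.2, 79.9 and 86.1 FPKM at 0 h and 15.6, 17.9 and 27.3 FPKM at 2 h (log2 change -2.06 ± 0.33) and Bcl11a at 26.4, 33.1 and 21.9 FPKM at 0 h and 4.56, 8.81 and 6.4 FPKM at 2 h (log2 change -1.91 ± 0.28). Scaled to the blood-cell genes, which fell themselves, Pax5 (-1.13), Myb (-0.98) and Bcl11a (-0.86) were still called lower, and Ebf1 was at 2.03, but the list turned, with 6 members higher, 3 lower and a median of 0.60. In the fit with the stromal covariate 0 of the 20 were called. Ebf1 was at 0.40 (adjusted p = 0.872) and Foxo1 at 0.77 (adjusted p = 0.449) in that limma fit.

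Genes of the B-cell surface and of the pre-B receptor had 0 higher and 8 lower of 18 tested, with a median log2 change of -1.23 and 18.5% of all genes lower. Without 2 h replicate 1, and also without 2 h replicate 2, 5 were lower. Cd93, an early B-cell marker, stood at 49.3, 73 and 58.9 FPKM at 0 h and 12, 18 and 21.5 FPKM at 2 h, a log2 change of -1.77 ± 0.23 (SE, adjusted p = 4.16e-07). Cd79a, which encodes a signalling chain of the B-cell receptor, stood at 24.3, 14.4 and 9.91 FPKM at 0 h and 5.51, 4.64 and 7.87 FPKM at 2 h, a log2 change of -1.24 ± 0.45 (SE, adjusted p = 0.031). Its call was lost without any 1 of 4 libraries, at worst without 0 h replicate 1 (-0.91, adjusted p = 0.174). Igll1, a surrogate light chain gene, stood at 33.6, 15.4 and 41.8 FPKM at 0 h and 9.29, 5.58 and 15.7 FPKM at 2 h (log2 change -1.48 ± 0.59, adjusted p = 0.0509), and 0 h and 2 h overlapped in it. The kinase gene Btk (-1.45) fell. After scaling to the blood-cell genes, 1 member was lower, Cd93 (-0.70, adjusted p = 0.0275), and 1 higher, and the median was -0.32. The stromal covariate left 0 of the 18 called.

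The recombinase genes that cut antigen receptor loci fell. Rag1 stood at 3.84, 5.12 and 7.95 FPKM at 0 h and 0.0684, 0.806 and 1.86 FPKM at 2 h, a log2 change of -1.86 ± 0.41 (SE, adjusted p = 0.000615). Rag2 stood at 10.2, 10.8 and 12.4 FPKM at 0 h and 1.52, 0.467 and 1.64 FPKM at 2 h, a log2 change of -2.50 ± 0.40 (SE, adjusted p = 9.35e-06). Both were below every 0 h library in all 3 libraries at 2 h, and Rag1 was the lowest in 2 h replicate 1. Of the 12 V(D)J recombination genes 7 fell and 0 rose, with a median log2 change of -0.59. Among the end-joining genes of the list, Xrcc6 (-1.19) fell, while Lig4 (0.29), Xrcc4 (-0.00) and Xrcc5 (0.16) did not pass the test. Scaled to the blood-cell genes, Rag1 (-1.01) and Rag2 (-1.51) were the 2 members still called lower. In that scaling 1 member was higher and the list's median turned to 0.53. The stromal covariate left 0 of the 12 called, Rag1 and Rag2 included.

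Receptors and signalling genes of the IL-7 pathway went both ways. Of 21 members 9 fell, 6 rose and 6 did not pass the test, with a median log2 change of -0.70. The shares over all genes were 18.5% and 16.5%. Il7r, the gene of the IL-7 receptor alpha chain, stood at 31.6, 23.7 and 19.2 FPKM at 0 h and 5.58, 5.94 and 7.75 FPKM at 2 h, a log2 change of -1.78 ± 0.48 (SE, adjusted p = 0.00406). Pim2, a survival kinase gene, stood at 104, 66 and 54.5 FPKM at 0 h and 11.5, 8.5 and 12.2 FPKM at 2 h, a log2 change of -2.65 ± 0.46 (SE, adjusted p = 3.48e-05). Bcl2, which encodes an inhibitor of cell death, stood at 80.6, 75.6 and 60.4 FPKM at 0 h and 17.3, 16.7 and 16.3 FPKM at 2 h, a log2 change of -2.03 ± 0.43 (SE, adjusted p = 0.000382). The groups did not overlap in any of the 3. Jak3 (-1.15) fell as well. Socs3 rose (4.45, 6.42 and 8.57 FPKM at 0 h and 38.2, 44.9 and 25.8 FPKM at 2 h; log2 change 2.32 ± 0.33), as did Bcl6 (1.48). The number of members higher was 3 without 0 h replicate 1 and also 3 without 2 h replicate 2. After scaling to the blood-cell genes, Pim2 (-1.57) and Bcl2 (-0.95) were still called lower and Il7r (-0.74, adjusted p = 0.0662) was not. In that scaling the list turned, with 9 members higher, 2 lower and a median of 0.34. No member of the 21 was called with the stromal covariate.

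Among FOXO target and quiescence genes 5 rose and 6 fell of 18, where 16.5% of all genes rose and 18.5% fell. The number that fell was 3 without 0 h replicate 2 or without 2 h replicate 2. Bcl2l11, which encodes the cell-death protein Bim, moved opposite to Bcl2, with 34, 29 and 20.2 FPKM at 0 h and 69, 68.1 and 90.5 FPKM at 2 h, a log2 change of 1.44 ± 0.35 (SE, adjusted p = 0.00158). It kept its call with the stromal covariate (2.77, adjusted p = 0.0117), and at 4 h it was below 2 h (log2 change -1.58, adjusted p = 0.0152) at a mean of 24.5 FPKM. Trib1, a pseudokinase gene, stood at 1.02, 1.15 and 3.25 FPKM at 0 h and 23, 29 and 27.8 FPKM at 2 h, a log2 change of 3.38 ± 0.28 (SE, adjusted p = 8.58e-11). In the blood-cell scaling the list, at a median of -0.31 before, had 9 members higher and 0 lower and a median of 0.70. The stromal covariate left 2 members higher and 0 lower.

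Stem and multipotent progenitor genes had 4 higher and 10 lower of 19 tested, with a median log2 change of -0.97. Flt3, the receptor gene for the Flt-3L of the earlier medium, stood at 142, 151 and 140.5 FPKM at 0 h and 30.3, 32.1 and 60.2 FPKM at 2 h, a log2 change of -1.87 ± 0.34 (SE, adjusted p = 7.1e-05). Cd34 stood at 328, 225 and 204 FPKM at 0 h and 98.3, 85 and 109.7 FPKM at 2 h, a log2 change of -1.34 ± 0.36 (SE, adjusted p = 0.00374). Cd27 stood at 35.7, 30.5 and 27.7 FPKM at 0 h and 8.7, 3.79 and 6.74 FPKM at 2 h (log2 change -2.18 ± 0.35). Kit, the receptor gene for SCF, stood at 20.5, 29.3 and 18.9 FPKM at 0 h and 16.6, 14.5 and 14.3 FPKM at 2 h (log2 change -0.54 ± 0.37, adjusted p = 0.267) and did not pass the test. Hoxa9 (-1.71) and Lyl1 (-1.67) fell. The 4 higher members included Hmga2 (3.16), Ly6a (1.62) and Gata2 (1.28). Hmga2 stood at 5.52, 10.1 and 22.5 FPKM at 0 h, in the order of the stromal sum, and at 110, 111 and 96.5 FPKM at 2 h. Whether its reads came from iLS or feeder cells was not tested. Gata2 was low throughout (0.321, 0 and 0.215 FPKM at 0 h and 2.04, 2.45 and 1.19 FPKM at 2 h). Scaled to the blood-cell genes, Flt3 (-0.78) and Cd27 (-1.12) were still called lower and Cd34 (-0.24) was not. In that scaling 4 members were higher and 2 lower, with a list median of -0.04. The stromal covariate left 0 of the 19 called.

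The 12 largest falls among genes at 10 FPKM or more in the higher group, with groups apart and small RNA genes left out, ran from Ccr2 to Epb4.1l4b. Ccr2, a chemokine receptor gene, stood at 41.8, 44.3 and 23.9 FPKM at 0 h and 4.96, 3.52 and 4.93 FPKM at 2 h, a log2 change of -2.75 ± 0.58 (SE, adjusted p = 0.000401). Gpr34 stood at 16.7, 13.4 and 18.4 FPKM at 0 h and 1.83, 1.32 and 1.66 FPKM at 2 h, a log2 change of -2.72 ± 0.37 (SE, adjusted p = 9.21e-07). P2ry14, the gene of a receptor for UDP-sugars, stood at 114, 72.1 and 68.5 FPKM at 0 h and 26.5, 8.61 and 12.6 FPKM at 2 h (log2 change -2.45 ± 0.66). Each of the 3 is a G protein-coupled receptor gene, as is Mrgpra9, which stood at 14.5, 10.7 and 5.94 FPKM at 0 h and 0.523, 1.32 and 0.951 FPKM at 2 h (log2 change -2.51 ± 0.52). Il12a, a cytokine subunit gene, stood at 31, 28.2 and 45.1 FPKM at 0 h and 3.31, 2.09 and 11.3 FPKM at 2 h, a log2 change of -2.68 ± 0.46 (SE, adjusted p = 3.51e-05). Epb4.1l4b stood at 46.5, 46.8 and 46.5 FPKM at 0 h and 5.92, 7.54 and 12.4 FPKM at 2 h, a log2 change of -2.36 ± 0.25 (SE, adjusted p = 1.45e-08). The last was the most even gene of this group at 0 h and lay far below that level in every library at 2 h. After scaling to the blood-cell genes, these 6 were still called lower, from -1.30 in Epb4.1l4b to -1.68 in Ccr2 and Gpr34. Not all of the 12 were, and Ly86 (-1.48, adjusted p = 0.0822) lost its call. With the stromal covariate none of the 6 was called.

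**Figure D3:**
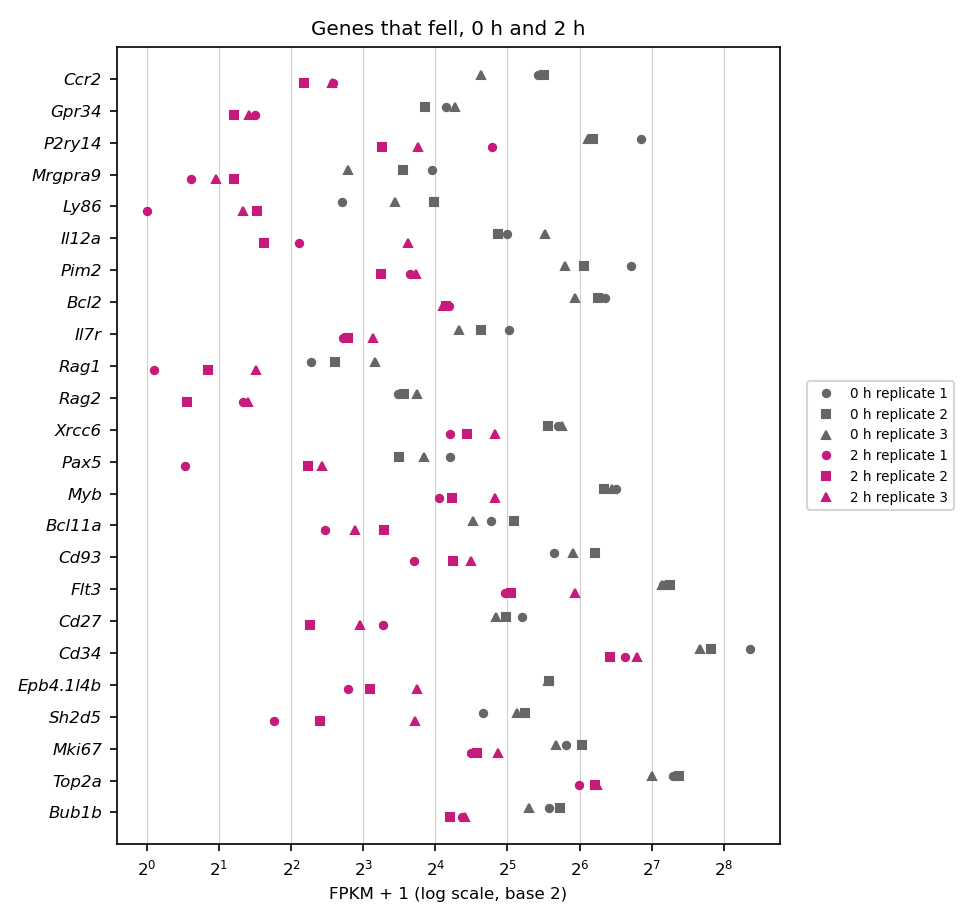
FPKM + 1 on a log scale (base 2) for 24 genes that fell, with the 3 libraries at 0 h in grey and the 3 at 2 h in magenta; symbols are the replicates. The 2 h libraries lie to the left of the 0 h libraries in each gene shown, with a log2 change of -1.08 in Top2a and -2.75 in Ccr2.

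Proliferation genes were moderately lower. Of 21 mitosis genes 13 fell and 0 rose, with a median log2 change of -0.69, and of 24 DNA replication genes 11 fell and 0 rose, with a median of -0.52. Mki67, a proliferation marker, stood at 55, 64.8 and 50 FPKM at 0 h and 21.6, 22.8 and 28.2 FPKM at 2 h, a log2 change of -1.19 ± 0.17 (SE, adjusted p = 2.88e-06). Top2a stood at 157, 165 and 128 FPKM at 0 h and 62.7, 73.2 and 74.7 FPKM at 2 h (log2 change -1.08 ± 0.16) and Bub1b, a spindle checkpoint gene, at 46.8, 52.2 and 38.5 FPKM at 0 h and 19.8, 17.4 and 20.3 FPKM at 2 h (log2 change -1.21 ± 0.21). The replicative helicase gene Mcm2 (-0.84) fell. The direction of both lists turned in the blood-cell scaling, with medians of 0.33 and 0.53 and 0 members of either list lower. In that scaling 2 mitosis and 8 replication genes were higher, with Mki67 at -0.12 and Mcm2 at 0.24. Neither list had a member called with the stromal covariate. Myc stood at 49.5, 68.7 and 84.6 FPKM at 0 h and 74.1, 76.2 and 80.8 FPKM at 2 h and did not pass the test (log2 change 0.22 ± 0.27, adjusted p = 0.56). Mycn fell (101, 92.8 and 87.1 FPKM at 0 h and 44.3, 23.9 and 36.3 FPKM at 2 h; log2 change -1.44 ± 0.57, adjusted p = 0.0478), and its call was lost without each of the 6 libraries in turn, with adjusted p up to 0.173 without 2 h replicate 2.

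Markers of other blood lineages were called lower in part, where 18.5% of all genes were. T-lineage genes had 0 higher and 2 lower of 13 tested, the kinase genes Lck (-1.72) and Zap70 (-1.77), and Cd3e, Cd247 and Bcl11b did not reach the filter. NK and innate lymphoid genes had 0 higher and 3 lower of 14, and without 0 h replicate 2 the number lower was 1. Myeloid genes had 3 higher and 5 lower of 17, with 3 lower without 0 h replicate 2, 2 h replicate 1 or 2 h replicate 3 and 2 lower without 2 h replicate 2. The higher members included Cebpb and Cebpd, genes that are also active in cells outside the blood. Cebpd, a C/EBP transcription factor gene, stood at 2.37, 3.22 and 2.55 FPKM at 0 h and 38.9, 22.8 and 18 FPKM at 2 h, a log2 change of 2.83 ± 0.35 (SE, adjusted p = 2.4e-07). Erythroid and megakaryocyte genes had 1 higher and 1 lower of 10, and Gata1 and Klf1 did not reach the filter. In the blood-cell scaling the T-lineage, NK, myeloid and erythroid lists had 0 members lower and 2, 2, 5 and 1 higher. None of these lists had a member called with the stromal covariate.

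Of the 13 circadian clock genes 6 rose and 1 fell. The repressor gene Bhlhe40 stood at 21.8, 15.4 and 12.5 FPKM at 0 h and 73.5, 76.2 and 82.5 FPKM at 2 h, a log2 change of 2.19 ± 0.21 (SE, adjusted p = 2.43e-09), and kept its call with the stromal covariate (2.64). Of 15 genes of the amino acid and unfolded protein response 6 rose, with Ddit3 at 1.90 and Xbp1 at 0.92, and 2 fell, Herpud1 (-0.60) and Pdia4 (-0.57). Herpud1 lost its call without 0 h replicate 1 and without 2 h replicate 2. Ribosome biogenesis genes had 3 higher and 0 lower of 22. Glycolysis genes had 3 higher and 2 lower of 17, with 6 lower without 0 h replicate 3. For both lists the shares over all genes were 16.5% higher and 18.5% lower.

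**Figure D4:**
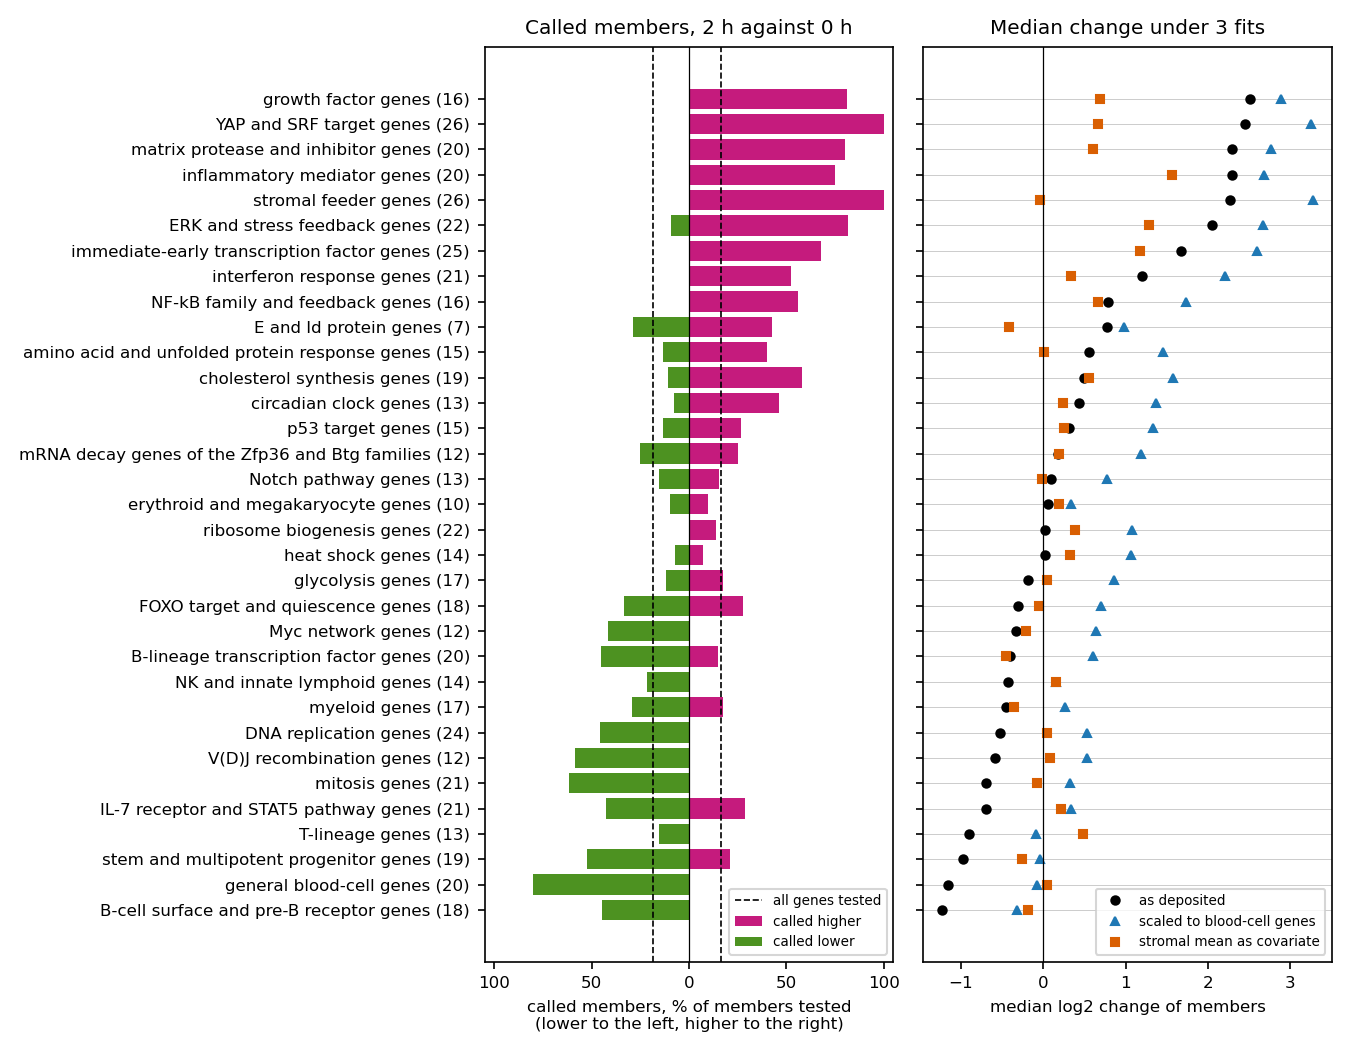
Left, the share of tested members called higher (magenta) or lower (green) at 2 h against 0 h for each gene list (number tested in parentheses), with the shares over all genes tested as dashed lines (16.5% and 18.5%). Right, the median log2 change of each list from the values as deposited (black), scaled to the blood-cell genes (blue) and with the stromal mean as a covariate (orange). The stromal feeder list goes from 2.27 to -0.04 with the covariate, which is the mean of that same list. The B-cell surface list goes from -1.23 to -0.32 when scaled.

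Against 1 h, few genes differed. At 2 h 80 genes were called higher (0.575%) and 41 lower (0.295%) than at 1 h. The stromal genes had 0 of 26 called in this step, with a median log2 change of 0.02, and the blood-cell genes 0 of 20. The immediate-early list had 9 of 25 lower and 0 higher, with a median of -0.95. Fosb, an AP-1 subunit gene, had a mean of 151.6 FPKM at 1 h and stood at 10.9, 22.7 and 36.8 FPKM at 2 h (log2 change against 1 h -2.68, adjusted p = 0.00186). Nr4a1, an orphan nuclear receptor gene, went from a mean of 209 FPKM at 1 h to 29.4, 55.0 and 34.3 at 2 h (-2.37, adjusted p = 0.00126), and Egr1 from 139.9 to 31.9, 50.8 and 36.4 (-1.78, adjusted p = 0.00696). Adamts1 (-2.01), Btg2 (-1.72) and Per1 (-1.58) were lower in the same step. Fosb, Btg2 and Per1 at 2 h did not pass the test against 0 h.

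Genes that rose between 1 h and 2 h included secreted factors and regulators. Inhba went from a mean of 18.4 FPKM at 1 h to 67.4 ± 12.8 at 2 h (SD, n = 3; log2 change 1.81, adjusted p = 0.0216). Cebpd went from 7.14 to 26.6 ± 11.0 FPKM (1.76, adjusted p = 0.00767) and Pdlim5, a cytoskeletal adapter gene, from 20.6 to 64.5 ± 25.3 FPKM (1.54, adjusted p = 0.00215). Sema7a, a membrane-anchored semaphorin gene, rose by 1.77 (adjusted p = 0.0424) and Foxo1 by 0.95 (adjusted p = 0.0366). Tmem51 was higher at 2 h than at 1 h (2.06, adjusted p = 0.0134) but at 17.5, 22.0 and 9.02 FPKM at 0 h it did not differ from 0 h by the test (0.32, adjusted p = 0.611).

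At 4 h, 76 genes were called higher (0.546%) and 77 lower (0.554%) than at 2 h. The feedback and growth factor genes Ereg (-1.72), Hbegf (-1.59) and Plk2 (-1.05), the decay factor gene Zc3h12a (-0.98) and Trib1 (-1.34) were lower at 4 h, and Flt3 (-1.48) was lower still. The immediate-early list had 8 of 25 lower and 0 higher. In the step from 1 h to 2 h, the 121 genes called in all became 65, 45 and 63 without 1 h replicates 1, 2 and 3 and 51, 62 and 73 without 2 h replicates 1, 2 and 3. In the step from 2 h to 4 h, the 153 genes became 71 without 2 h replicate 2, 77 without 2 h replicate 3, 48 without 4 h replicate 1 and 75 without 4 h replicate 2.

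A group of 10 genes were highest at 2 h (0.0719% of those tested), that is, higher at 2 h than at 0 h and than at 1 h and lower at 4 h than at 2 h. The 3 contrasts share the 2 h libraries. Furin, which encodes a protease that activates precursor proteins such as those of the TGF-beta family, stood at 31.1, 38.9 and 34.6 FPKM at 0 h and 87.2, 93.5 and 143 FPKM at 2 h, with means of 51.3 FPKM at 1 h and 43.3 at 4 h. It was above 1 h by 1.02 (adjusted p = 0.00186) and above 4 h by a change of -1.27 from 2 h to 4 h (adjusted p = 0.000298). Furin stayed in this group when any 1 of the 12 libraries was left out. Tgfbr1, a TGF-beta receptor gene, stood at 12.8, 10.5 and 8.93 FPKM at 0 h and 24.4, 24 and 21.9 FPKM at 2 h, with a mean of 9.15 FPKM at 1 h, and Smad3, which transmits the TGF-beta signal, at 19.1, 20.8 and 14.1 FPKM at 0 h and 32.4, 31.4 and 31.5 FPKM at 2 h, with means of 18.7 at 1 h and 19.3 at 4 h. These 2 stayed in the group in 1 and 3 of the 12 fits that left a library out. Mtss1 stayed in 7, Mical1 in 4 and Ccl20 in 1. Ovol2 and 4831426I19Rik stayed in 9 and 11. The microRNA genes Mir29b-2 and Mir5133, which stayed in 12 and 3, were listed at 0 in every library at 0, 1 and 4 h. Their log2 changes against 0 h were 9.6 and 10.61. FPKM divides by transcript length, so in genes this short a few fragments can give a large value. Without counts this cannot be checked, and staying in the group does not make their change dependable. Kif18a was the only gene lowest at 2 h (0.00719%), at 7.24, 9.06 and 6.73 FPKM at 0 h and 4.75, 2.12 and 4.45 FPKM at 2 h (log2 change -0.90 ± 0.24), and lost its call against 0 h without 2 h replicate 2. Counts of this group without single libraries were 5 without 1 h replicate 2 or 1 h replicate 3, 4 without 2 h replicate 1, 5 without 2 h replicate 2, 3 without 2 h replicate 3, 3 without 4 h replicate 1, 6 without 4 h replicate 2 and 5 without 4 h replicate 3.

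**Figure D5:**
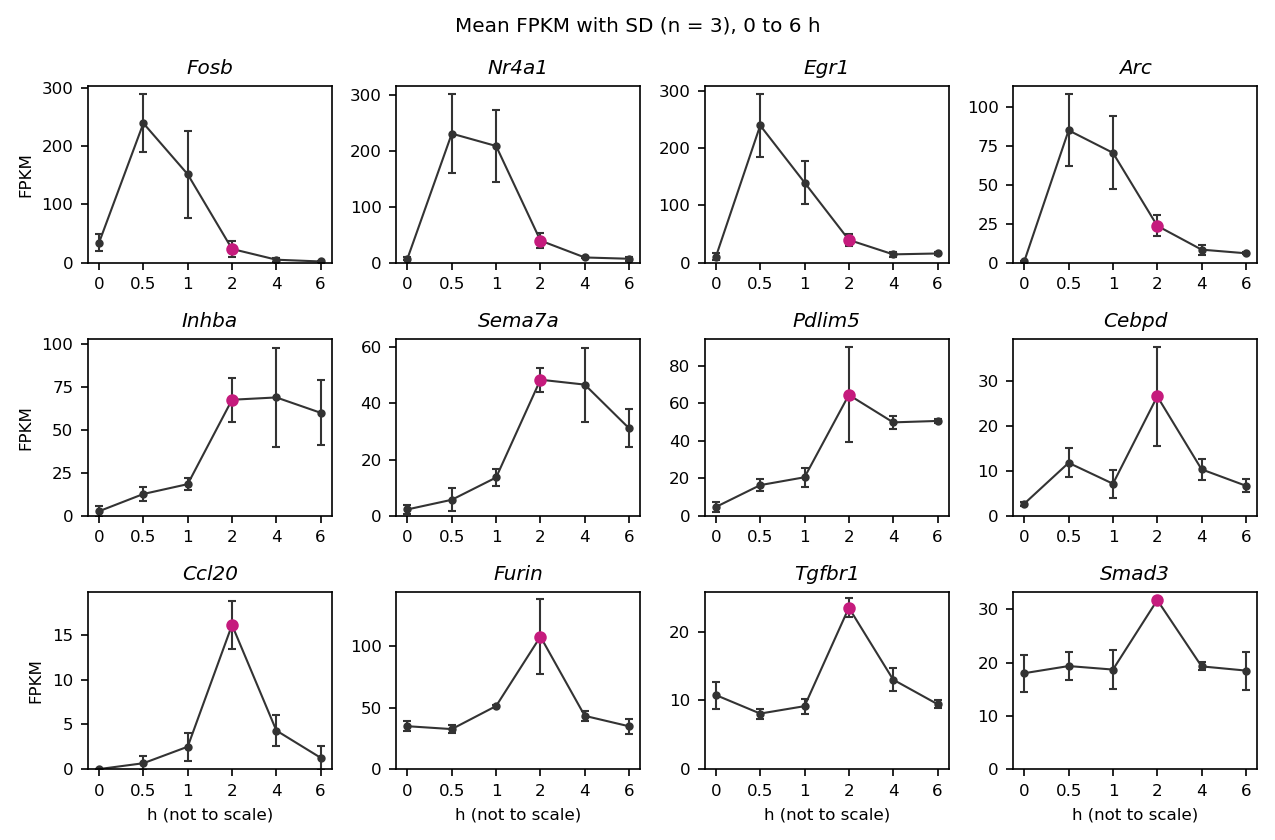
Mean FPKM with SD (n = 3) from 0 to 6 h (not to scale) for 12 genes, with the 2 h mean in magenta. Fosb, Nr4a1, Egr1 and Arc are past their highest mean at 2 h, Inhba, Sema7a, Pdlim5 and Cebpd are higher at 2 h than at 1 h, and Ccl20, Furin, Tgfbr1 and Smad3 are highest at 2 h.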

How the data were processed

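Poly(A) RNA of 42 libraries was compared through 1 table of FPKM values deposited by the authors, whose name calls them corrected; the correction is not given in the sources used here. TopHat2 2.1.0, Cufflinks 2.1.1 and build mm9 are named in the submitters' processing notes. The members and gene lists were chosen with earlier results of these data known.

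The test covered 13907 of 23234 genes, those reaching 1 FPKM in 3 or more libraries. log2(FPKM + 1) values were fitted with limma 3.58.1 in R 4.3.3 (1 mean per time point, moderated variances with a mean trend, 28 residual degrees of freedom), and adjusted p-values are Benjamini-Hochberg values over all genes tested. On simulated data for 2 h against 0 h with 13907 genes, 57 of 100 genes changed 2-fold and 96 of 100 changed 4-fold were called with the right sign, with 15 false calls. The changed genes were drawn only from those above a minimum level at 0 h, and noise was independent between genes. No shift of feeder signal was simulated. These figures therefore do not cover low genes or a comparison in which 35% of genes were called. Depth is unknown.

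Genes named were the 12 largest called rises and the 12 largest called falls with groups apart and at least 10 FPKM in the higher group, small RNA genes left out, up to 3 called members of each list with the largest change, the genes highest or lowest at 2 h, and a set of lineage and response genes. Not all of these are printed, and 3 genes are not reported here. Members given by their change alone, such as those beside each list's examples, were chosen after their values were seen. Alternatives covered other scalings, filters, pseudocounts, a replicate block, a stromal covariate and left-out libraries. Promoter sequences and windows are RefSeq's, build GRCm38.p6, matched by symbol. Python 3.11.15, pandas 2.3.3 and numpy 2.4.6 were used.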

Additional observations from a re-analysis of the deposited data

How the results depend on the processing

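Among the 171 genes of the text, direction and call were kept by 166 with median-ratio scaling, 168 with a pseudocount of 0.1 and 169 with quantile normalization. They were kept by 136 with a 1.5-fold minimum, by 129 with the replicate block in 6 libraries, by 133 in the blood-cell scaling, where 15 lost their call and 14 turned, and by 61 with the stromal covariate, where 100 lost their call and 10 turned. With a 1.5-fold minimum, 1213 genes were called at 2 h against 0 h, 971 higher and 242 lower. With the stromal covariate 124 were called, 97 higher and 27 lower, and blood-cell scaling gave 6214 higher and 87 lower. With 1 library left out the counts were 3636 to 4712 in all, 1847 to 2311 higher and 1788 to 2401 lower. Without replicate 3 of both groups, a setting chosen after seeing the data, 2299 were higher and 2278 lower.

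Against 1 h, leaving out 1 library gave 45 to 73 genes in all, 34 to 52 higher and 10 to 22 lower, and scaling to the blood-cell genes gave 20, 13 and 7. From 2 h to 4 h, the leave-outs gave 48 to 123 in all, 17 to 72 higher and 31 to 68 lower, and that scaling gave 17, 7 and 10. Genes highest at 2 h numbered 3 to 8 with 1 library left out, 6 with a pseudocount of 0.1, 17 with median-ratio scaling and 2 scaled to the blood-cell genes. Genes lowest at 2 h numbered 0 to 1 with 1 library left out and 0 with no filter on low values, with quantile normalization, with median-ratio scaling and in the blood-cell scaling. The summed stromal FPKM was higher by 1.97 to 2.90 and the summed blood-cell FPKM changed by -1.25 to -1.05 (log2) with 1 library left out.

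The direction turned with the stromal covariate in Adamts1 (-0.28), Bmp4 (-1.77), Cd79a (0.48), Col1a1 (-0.69), Col3a1 (-0.06), Dusp2 (0.01), Id3 (-0.50), Il7r (0.51), Mycn (0.17) and P2ry14 (0.09). It turned with the blood-cell scaling in Acat2 (0.46), Csrnp1 (0.99), Dhcr7 (0.18), Herpud1 (0.46), Jund (0.59), Kif18a (0.02), Klf2 (1.04), Mcm2 (0.24), Nfkb1 (0.58), Pdia4 (0.51), Rel (0.81), Spred3 (0.11), Tcf3 (0.66) and Top2a (0.01). The cause was not tested.

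Replicate numbers were not taken to pair the samples, by a check on the 0 h and 2 h libraries alone. Deviations from the group means of same-numbered 0 h and 2 h libraries correlated at 0.0604, 0.0906 and -0.0840 across genes. Not every library correlated best with its own number. The check cannot exclude pairing, since replicate 3 had the most stromal signal at 0 h and the least at 2 h. With the replicate number as a block in the 6 libraries, 1253 genes were called, 549 higher and 704 lower, while the block gave 5367 in the fit of all 42 libraries and 6041 in the 18 libraries of 0 to 6 h. With the block in all 42 libraries, 185 genes were called against 1 h, 121 higher and 64 lower, and 270 from 2 h to 4 h, 144 higher and 126 lower, with 18 highest and 3 lowest at 2 h. The unknown depth and 3 libraries a group limit small changes and genes near 1 FPKM.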
